A study of Mus musculus with 2 samples.

Results

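The insulin-like growth factor binding proteins *Igfbp2*, *Igfbp3*, *Igfbp4*, *Igfbp5*, *Igfbp6* and *Igfbp7*, the ligand gene *Igf1* and the receptor genes *Igf1r* and *Igf2r* were followed through single cells of the adult mouse mammary gland. These 9 genes were taken by symbol from the 27998 genes in the count tables, and each matched 1 row. The cells came from untreated adult FVB/NJ mice, an inbred strain, at 10 weeks of age, with 4 mice pooled for each library. The sorted basal library held Lin-CD29hiCD24+ cells, and the total epithelium library held Lin-CD24+ cells, in which the antibodies against TER119, CD31 and CD45 remove red cells, endothelium and leukocytes. There was 1 library per group, so no difference below has a replicate check or a test, and the library and the sort gate cannot be told apart. All intervals are 95% intervals that cover counting error only.

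Insulin-like growth factors are secreted proteins that signal through a receptor tyrosine kinase, IGF1R, to promote growth and survival. The binding proteins hold the ligands in the extracellular space, where they may store them, carry them or keep them from the receptor, and proteases release the ligand again. IGF2R, also the cation-independent mannose 6-phosphate receptor, takes up IGF2 for breakdown. In the mammary gland this system is known for its part in ductal growth and in the loss of epithelium after weaning, when IGFBP5 rises.

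The total epithelium library was divided by the counts of class genes. Cells with 10 or more counts of *Krt5*, *Krt14* and *Acta2* together formed the basal class, cells with 10 or more of *Prlr*, *Stc2* and *Gpx3* the mature luminal (ML) class, other cells with 3 or more of *Krt8*, *Krt18* and *Krt19* the luminal progenitor (LP) class, and the remaining cells the stromal class. Of 3302 cells, 1306 were basal, 766 LP, 1133 ML and 97 stromal. Median counts per cell were 1838.5 in the basal, 2483.5 in the LP, 3403 in the ML and 1184 in the stromal class. The sorted basal library held 4771 cells and was shallower, with a median of 487 counts against 2425.5 in total epithelium. In total, 28 barcodes occurred in both libraries, and 26 cells of total epithelium met both the basal and the ML threshold and were kept as basal. Markers that the rule did not use followed the class names. The 6 further basal markers summed to 14073 counts per 1000000 (CPM) in the basal class against 109 in LP and 46.0 in ML, the 4 LP markers *Aldh1a3*, *Cd14*, *Elf5* and *Kit* to 3196 CPM in LP against 140 in basal and 336 in ML, and the 5 further ML markers to 7548 CPM in ML against 756 in LP. The listed immune markers were *Cd74*, *Ptprc* and *Tyrobp*. Of these, *Ptprc* and *Tyrobp* had 0 counts in all 4 classes. The level of *Cd74* is not reported here, so no absence of immune cells is read from these zeros. The stromal class held 35 cells with 3 or more counts of collagen markers (*Dcn* included), 18 with endothelial or mural markers, 6 with neural markers and 38 with none of these.

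The ML class also held cells that went against its name. A set of 12 ML cells, and 1 cell each of the basal and LP classes, carried 3 or more counts of *Col1a1*, *Col1a2* and *Col3a1*, the type I and III collagens of fibroblasts. These 12 cells had entered the ML class through *Gpx3* (median 28 counts), while *Prlr* and *Stc2* together gave at most 8 counts in any of them and 9 of the 12 had fewer than 3 counts of the luminal keratins. In all, 48 cells of total epithelium met this definition, of which 34 were stromal. They are called collagen cells here, and values are given with and without them wherever they hold a sizeable part of a gene's counts. *Dcn* was left out of this definition because ML cells without the other collagens also contained it. The collagen set was chosen after the data had been seen.

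The genes lie on 7 chromosomes of GRCm38, and binding protein genes stand side by side in 2 places. *Igfbp2* (chr1:72824503-72852474, + strand) and *Igfbp5* (chr1:72857932-72874884, - strand) are separated by 5457 bases and face each other with their ends. *Igfbp3* (chr11:7206086-7213923, - strand) lies 3539 bases from *Igfbp1*, which had 0 counts in both libraries. The bases upstream of the RefSeq start are shown for *Igfbp2*, *Igfbp3* and *Igfbp7*, whose counts within the epithelium lay mostly in basal cells, and for *Igfbp5*, which was divided between basal and LP cells. The sequences are from RefSeq, build GRCm38.p6, written 5′ to 3′ on the strand of the gene, at chr1:72824230-72824479 (+) for *Igfbp2*, chr11:7213924-7214173 (-) for *Igfbp3*, chr5:77408046-77408295 (-) for *Igfbp7* and chr1:72874885-72875115 (-) for *Igfbp5*, the last stopping at the GENCODE start. Capitals mark matches on either strand to GGGCGG (a GC box) or CANNTG (an E box), and no matches overlap.
Igfbp2: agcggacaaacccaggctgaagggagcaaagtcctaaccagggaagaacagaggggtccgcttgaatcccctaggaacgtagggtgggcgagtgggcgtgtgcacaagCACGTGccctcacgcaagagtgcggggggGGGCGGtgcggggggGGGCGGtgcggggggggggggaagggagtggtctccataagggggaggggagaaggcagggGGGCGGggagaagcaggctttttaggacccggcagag
Igfbp3: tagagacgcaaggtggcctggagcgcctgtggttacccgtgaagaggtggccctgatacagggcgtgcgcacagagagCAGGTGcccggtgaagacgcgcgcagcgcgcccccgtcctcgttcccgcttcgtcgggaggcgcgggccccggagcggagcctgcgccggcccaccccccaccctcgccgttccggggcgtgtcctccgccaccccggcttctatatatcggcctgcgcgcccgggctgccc
Igfbp7: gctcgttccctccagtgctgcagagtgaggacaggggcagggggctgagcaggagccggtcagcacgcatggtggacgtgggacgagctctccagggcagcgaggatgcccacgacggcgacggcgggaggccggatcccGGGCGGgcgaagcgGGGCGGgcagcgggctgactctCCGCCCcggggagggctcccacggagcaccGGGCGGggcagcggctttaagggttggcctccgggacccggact
Igfbp5: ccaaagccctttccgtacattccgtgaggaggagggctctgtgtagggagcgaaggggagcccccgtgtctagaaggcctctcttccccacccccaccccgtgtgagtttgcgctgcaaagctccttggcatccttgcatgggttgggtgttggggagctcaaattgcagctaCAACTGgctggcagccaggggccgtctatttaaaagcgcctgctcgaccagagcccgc
The GC box occurred 3 times before *Igfbp2* and 4 times before *Igfbp7*, and it was not found before *Igfbp3* or *Igfbp5*; 32.7% of 32851 RefSeq promoters hold it within 250 bases. An E box occurred once each before *Igfbp2*, *Igfbp3* and *Igfbp5*, and 66.2% of promoters hold one. The letters TATAAA (12.4% of promoters), TGANTCA (6.75%) and the CArG box (1.47%) were in none of these windows. The 3 basal genes thus had no searched motif in common in the windows shown. Another RefSeq promoter entry of *Igfbp2* (chr1:72825137-72825436) had no GC box, 1 E box and 1 TGANTCA match upstream of its start, with 56.4% G and C. Their windows had G and C at 67.2% (*Igfbp2*), 73.2% (*Igfbp3*) and 74.0% (*Igfbp7*) of bases and that of *Igfbp5* at 60.6%, against a median of 52.4% over all promoters.

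The first question was how the binding proteins divide among the epithelial classes. Levels are sums over the cells of a class, scaled to the total of that class and given as CPM with exact Poisson intervals. In such sums, fewer cells with the mRNA and less mRNA per cell cannot be told apart, so shares of cells are given beside them. Because each molecule is counted once at its 3′ end, levels were not divided by gene length, and different genes were not ranked against each other. Of the 9 genes, 8 had at least 30 counts over the 3 epithelial classes and *Igf1* did not. A difference of 4-fold or more between the highest and lowest class was seen in 7 of these 8, against 24.1% of 10096 genes that passed the same minimum. Within this count, *Igfbp2*, *Igfbp3*, *Igfbp4*, *Igfbp7* and *Igf1r* were highest in the basal class, as were 11.4% of all genes, *Igfbp5* was highest in LP and *Igfbp6* in ML. With the collagen cells left out, the count was again 7 of 8 against a background of 24.1%, *Igfbp6* moved to the basal class, and 11.5% of all genes were 4-fold with basal highest. The plot of levels by class shows all 9 genes.

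**Figure D1:**
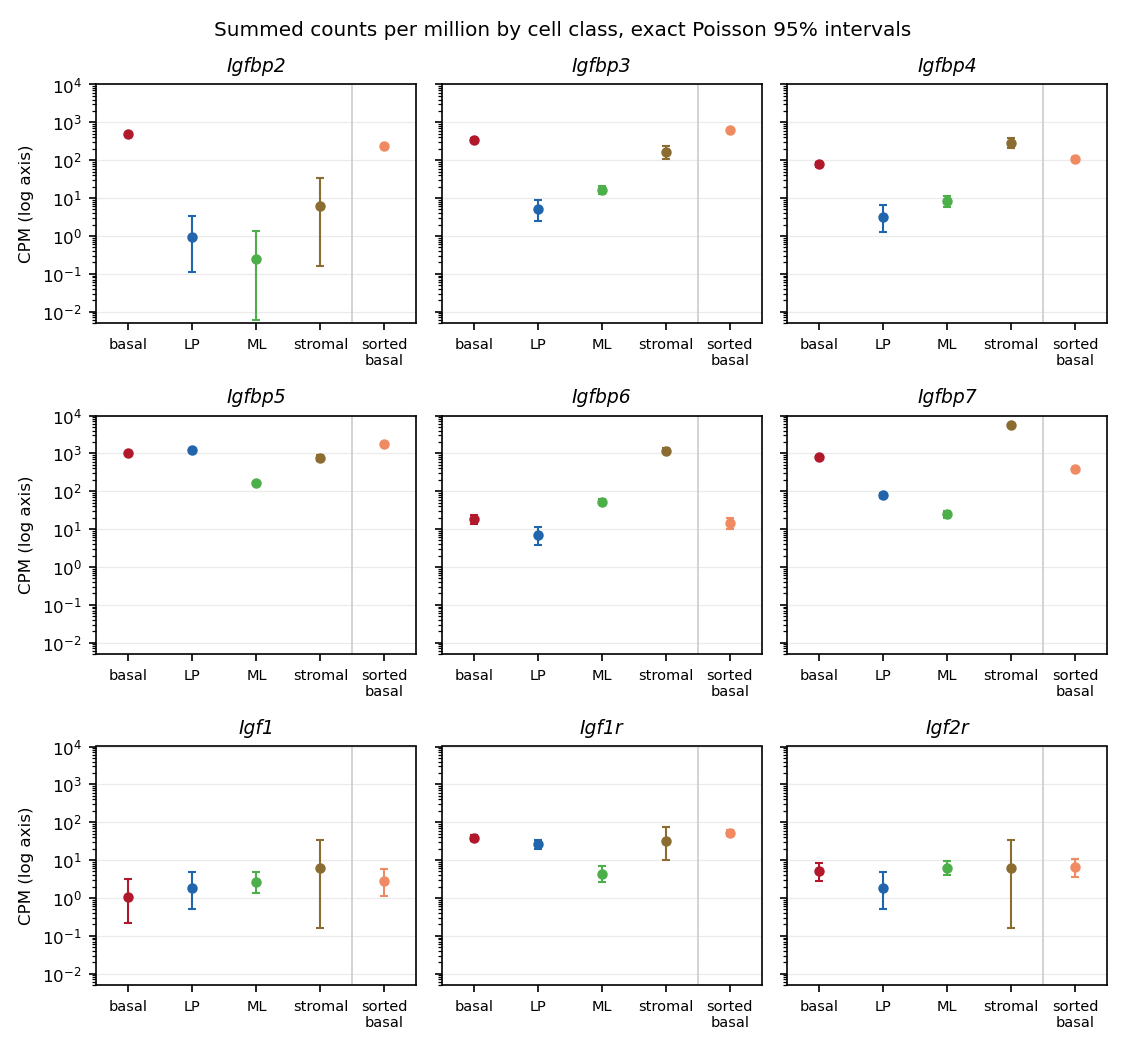
Levels of the 9 genes as summed counts scaled to CPM (log axis) in the basal, LP, ML and stromal classes of total epithelium and, right of the line, in the sorted basal library; points are class sums and bars are exact Poisson 95% intervals. *Igfbp2* is at 506 CPM in the basal class and under 1 CPM in LP and ML, whereas *Igfbp5* stands at 1015 CPM in basal and 1233 CPM in LP cells.

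*Igfbp2*, which binds both growth factors and carries an integrin-binding motif, had the sharpest division. It had 1406 counts in the basal class (506 CPM, interval 480 to 534), 2 in LP, 1 in ML and 1 in stromal cells. The basal level was 547 times the LP level, with a counting interval from 151 to 4518, and 2093 times the ML level, from 375 to 82730. When every cell was thinned to 800 counts, 23.1% of basal cells (exact binomial interval 20.9 to 25.5%) had an *Igfbp2* count, and 0.261% of LP and 0.0883% of ML cells did. Unthinned, 36.4% of basal cells had a count, and the highest single cell had 26.

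Other genes that basal cells make in quantity also gave a few counts in luminal cells. The basal genes *Krt17*, *Myl9* and *Cxcl14*, which the class rule did not use, were in LP cells at 0.373% to 0.917% of their basal level and in ML cells at 0.204% to 0.408%. The *Igfbp2* level in LP was 0.183% of the basal level (0.0221 to 0.662%) and that in ML 0.0478% (0.00121 to 0.267%). Both values lay below those of the 3 genes, with intervals that overlapped their range, and the source of these few counts was not tested.

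*Igfbp3*, the main carrier of growth factors in serum, had 977 counts in the basal class (352 CPM, 330 to 375), 11 in LP (5.10 CPM, 2.54 to 9.12) and 69 in ML (16.7 CPM, 12.99 to 21.1). Of the 69 ML counts, 62 were in collagen cells, and a single collagen cell held 60. Without collagen cells the ML level was 1.71 CPM (0.687 to 3.52) and the basal level 206 times as high (99.6 to 514), in place of 21.1 times (16.5 to 27.3). LP cells with 3 or more LP marker counts had 1 *Igfbp3* count among 531 cells, and the other 234 LP cells without collagen had 10, of which 1 cell held 7. At 800 counts per cell, 19.4% of basal cells (17.3 to 21.6%) and 0.261% of LP cells had a count.

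*Igfbp4*, an inhibitory binding protein that PAPP-A cleaves, had 215 counts in the basal class (77.4 CPM, 67.4 to 88.5), 7 in LP (3.24 CPM, 1.30 to 6.68) and 34 in ML (8.23 CPM, 5.70 to 11.5). All 34 ML counts were in collagen cells, as was 1 of the 7 LP counts. Among the other 1121 ML cells the count was 0. The basal level was 106 times the level that 3 counts over these cells would give. The exact counting interval of the basal to ML ratio began at 85.3. In the basal class the gene was sparse, and after thinning 5.44% of cells (4.27 to 6.81%) had a count.

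*Igfbp7*, a low-affinity member of the family found in vessel walls and basement membranes, was at 791 CPM in the basal class (758 to 825), 79.2 in LP (67.8 to 92.0) and 24.7 in ML (20.1 to 29.96). Its counts were 2196, 171 and 102. Collagen cells held 48 of the ML counts, and without them the ML level was 13.2 CPM (9.90 to 17.2) and the basal level 59.2 times as high (45.2 to 79.0), in place of 32.0 times (26.3 to 39.5). The single basal collagen cell held 32 of the basal counts. The LP level was 10.0% of the basal level (8.52 to 11.7%), above the 0.917% that was the highest share among these 3 basal genes. Endothelial markers summed to 8.34 CPM in LP cells, and the source of the *Igfbp7* counts in LP cells was not tested. At 800 counts, 37.8% of basal (35.2 to 40.5%), 5.87% of LP (4.32 to 7.78%) and 1.32% of ML cells had an *Igfbp7* count.

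The signalling receptor *Igf1r* was at 37.8 CPM in basal (30.9 to 45.8; 105 counts), 26.4 in LP (20 to 34.2; 57 counts) and 4.36 in ML cells (2.58 to 6.88; 18 counts). Basal cells were thus 8.68 times (5.24 to 15.2) and LP cells 6.06 times (3.52 to 10.9) as high as ML cells, whereas basal and LP cells differed by 1.43 times (1.03 to 2.01). *Igf2r* had 26 counts in ML (6.29 CPM), 14 in basal (5.04 CPM) and 4 in LP cells (1.85 CPM). The ML level was 3.39 times the LP level (1.18 to 13.4) and could not be separated from the basal level (ratio 1.25, 0.628 to 2.58). It did not reach 4-fold. *Igf1*, a ligand that the liver and stromal cells make in response to growth hormone, had 19 counts in the library. Of these, 11 were in ML cells, all in 3 collagen cells, 1 was in a stromal collagen cell, 4 were in LP and 3 in basal cells.

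*Igfbp5*, which binds to extracellular matrix, was the only binding protein here with a comparable level in basal and LP cells. It had 2819 counts in the basal class (1015 CPM, 978 to 1054), 2662 in LP (1233 CPM, 1187 to 1281) and 682 in ML (165 CPM, 153 to 178). LP cells were 1.21 times basal cells (1.15 to 1.28) and 7.47 times ML cells (6.87 to 8.14). The order of LP and basal depended on where the classes were divided. The log2 ratio of basal over LP was -0.28, and it became 0.03 with doubled class thresholds, 0.27 with classes set on thinned counts and -0.44 with LP limited to cells carrying LP markers. After thinning to 800 counts, 44.6% of basal (41.9 to 47.4%), 49.5% of LP (45.9 to 53.1%) and 6.53% of ML cells (5.16 to 8.13%) had a count.

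Among luminal cells, *Igfbp5* was higher where progenitor markers, which the class rule did not use, had more counts. ML cells with 3 or more LP marker counts numbered 115, and they had 489 *Igfbp5* counts (747 CPM, 683 to 817), whereas the other 1006 had 119 (34.6 CPM, 28.6 to 41.4), a ratio of 21.6 (17.7 to 26.6). These 115 cells were deeper, with a median of 5609 counts against 3243.5. To remove depth, the 1886 LP and ML cells without collagen were thinned to 800 counts each and then divided by marker counts. *Igfbp5* was at 169 CPM in cells with 0 LP marker counts and at 1055 with 1 or 2. It was at 1447 (1262 to 1652) with 3 to 5 and at 1553 (1296 to 1847) with 6 or more, with overlapping intervals. LP markers also differ between LP and ML cells, so these pooled bins restate in part the class difference. Within the LP class at full depth, cells with LP markers had 1.90 times the *Igfbp5* level of the others (1.70 to 2.14). They were also deeper, with a median of 2830 counts against 1740, and the part of depth in this ratio was not tested. The division by the ML class genes follows the class split itself and adds no independent support. By these genes it was at 1311 CPM with 0 counts, 684 with 1 or 2, 174 with 3 to 9 and 39.2 with 10 or more. Where cells carried both 3 or more LP marker counts and 3 or more ML gene counts at this depth, *Igfbp5* was at 1063 CPM (619 to 1701), but only 20 cells were of this kind.

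**Figure D2:**
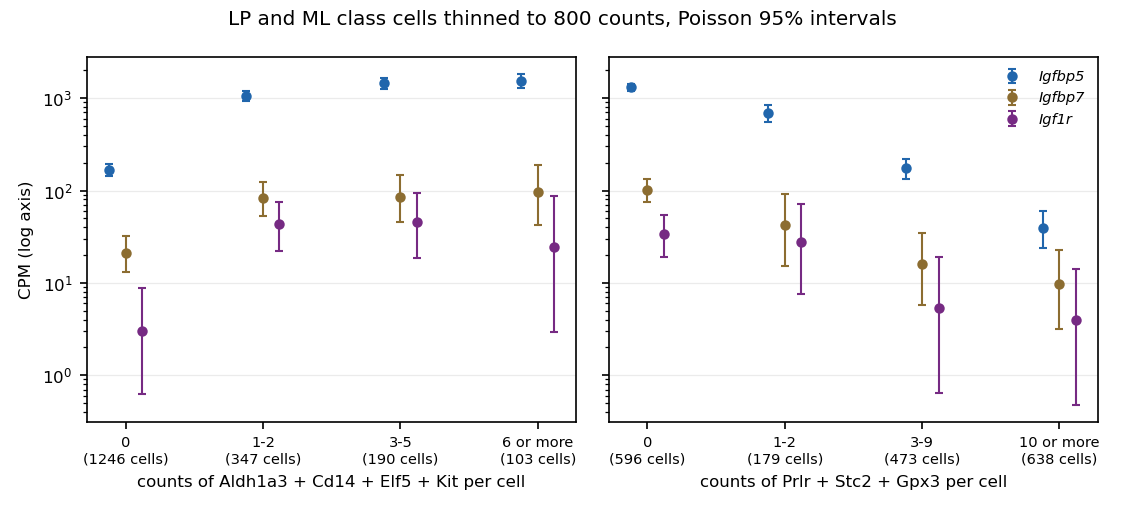
Levels of *Igfbp5*, *Igfbp7* and *Igf1r* (CPM, log axis) in LP and ML cells without collagen, thinned to 800 counts and divided by counts of 4 LP markers (left) or of the 3 ML genes that also set the classes (right); bars are Poisson 95% intervals. *Igfbp5* is lowest at 169 CPM in cells with 0 LP marker counts and goes from 1311 CPM in cells with 0 ML gene counts to 39.2 CPM in cells with 10 or more.

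*Igfbp7* and *Igf1r* were also lowest in cells with 0 LP marker counts, on far fewer counts. *Igfbp7* was at 21.1 CPM (13.04 to 32.2) in cells with 0 LP marker counts and at 82.9 (52.5 to 124) with 1 or 2, and its level beyond that stayed within those intervals. *Igf1r* was at 3.01 CPM (0.621 to 8.80) with 0 LP marker counts and at 43.2 (22.3 to 75.5) with 1 or 2. Only 3 *Igf1r* counts lay behind the first of these values. Within the LP class alone the 2 genes differed in direction at full depth. LP cells with LP markers, which were deeper, had 0.654 times the *Igfbp7* level of the other LP cells (0.468 to 0.926). Their *Igf1r* level was 2.83 times that of the other LP cells (1.14 to 9.10), on 51 against 5 counts. In the same split the basal genes *Krt17* (0.308 times), *Myl9* (0.278) and *Cxcl14* (0.0428) were lower as well, and their part in the *Igfbp7* difference was not tested.

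*Igfbp6*, which prefers IGF2, was highest among epithelial classes in ML by the class rule alone. Its counts were 51 in basal (18.4 CPM, 13.7 to 24.2), 15 in LP (6.95 CPM, 3.89 to 11.5) and 219 in ML cells (53.0 CPM, 46.2 to 60.5). Collagen cells held 217 of the ML and 14 of the LP counts, and each of the 12 ML collagen cells had at least 2. Without them ML had 2 counts and LP 1, and the basal class, with 51 counts of which 1 cell held 16, was highest. The basal level was then 37.6 times that of ML, with a counting interval from 9.90 to 319. At 800 counts, 1.30% of basal cells (0.760 to 2.08%) had an *Igfbp6* count.

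**Figure D3:**
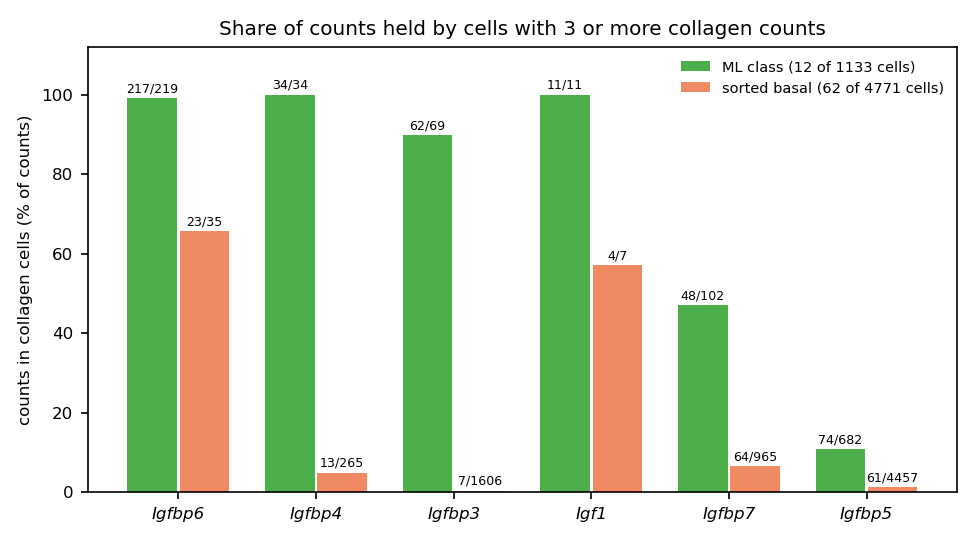
Percent of each gene's counts held by cells with 3 or more counts of type I and III collagen, in the ML class of total epithelium and in the sorted basal library; the numbers above the bars are counts in collagen cells over all counts. In the ML class 12 of 1133 cells hold 217 of 219 *Igfbp6* counts, 34 of 34 *Igfbp4* counts and 62 of 69 *Igfbp3* counts.

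In the stromal class, which had 97 cells, the question was which members exceed their epithelial levels. *Igfbp6* and *Igfbp7*, 2 of the 8 members with enough counts, were 4-fold or more above the highest epithelial class, against 3.28% of 10217 genes. Without collagen cells in the epithelial classes the background was 3.15%, and the same 2 genes passed.

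*Igfbp6* was at 1169 CPM in the stromal class (1007 to 1349). All 187 of its counts were in the 35 collagen-marked cells, 13 of which had any, and the highest cell had 44. In those cells the level was 2857 CPM (2462 to 3297), or 156 times the basal level (114 to 216). The 18 vascular and 6 neural cells had 0 counts, as did the 38 stromal cells without such markers, so *Igfbp6* was within the stromal class detected in collagen-marked cells alone.

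*Igfbp7* was at 5745 CPM in the stromal class (5379 to 6128), 7.26 times the basal level (6.72 to 7.85), and it was spread over all stromal kinds. It was highest in vascular cells, with 378 counts in 18 cells (17217 CPM, 15525 to 19043), and lower in collagen-marked cells with 392 counts in 35 cells (5988 CPM, 5410.1 to 6611). The vascular level was 2.87 times the collagen level (2.49 to 3.32) and 21.8 times the basal level (19.5 to 24.3). Neural cells had 24 counts (3758 CPM) and the remaining stromal cells 125 (1889 CPM). Those remaining cells also held 2509 CPM of the basal class genes, and the part of basal RNA in them was not tested.

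*Igfbp4* was at 288 CPM in stromal cells (211 to 384), 3.71 times the basal level (2.64 to 5.13), and so below 4-fold. It passed 4-fold when only collagen-marked stromal cells were used (6.51 times, 4.37 to 9.42) and when the deepest 5% of cells were left out. It was at 504 CPM (347 to 708; 33 counts) in collagen-marked and at 319 CPM (128 to 657; 7 counts) in vascular cells. *Igfbp3* was at 163 CPM in the class (106 to 238) and differed by kind, with 638 CPM (349 to 1069.9) in vascular against 122 CPM (52.8 to 241) in collagen-marked cells, on 14 and 8 counts. Conversely, *Igfbp5* was at 1222 CPM (969 to 1521) in collagen-marked and at 137 CPM (28.2 to 399) in vascular cells. *Igfbp2* had 0 counts in both. The 3 counts allowed by a count of 0 correspond to 45.8 CPM in collagen-marked and 137 CPM in vascular cells.

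The genes closest to each binding protein were found by Pearson's r of ln(1 + counts per 10000) across cells, given as a description, since cells of 1 library share its depth and classes. Over all 3302 cells, the 5 nearest genes to *Igfbp2* were the contractile genes *Cnn1* (r = 0.52), *Acta2* (0.51), *Tagln* (0.51), *Myl9* (0.50) and *Tpm2* (0.50). Those of *Igfbp7* were *Sparc* (0.53), *Tagln*, *Myl9*, *Acta2* and *Tpm2*, and those of *Igfbp3* were *Apoe* (0.43), *Cxcl14*, *Krt14*, *Sparc* and *Acta2*. *Igfbp5* instead ranked with *Lcn2* (0.62), a secreted defence protein, *Trf* (0.50), the iron carrier transferrin, *Mgst1*, *Errfi1* and *Mfge8*. *Igfbp6* ranked with *Col3a1* (0.62), *Cd34* (0.61), *Col1a2* (0.60), *Ly6c1* and *Rarres2*, and *Igfbp4* with *Cd34* (0.38) and with *Igfbp6* itself (0.33), followed by *Serpinf1*, *Serping1* and *Rarres2*. Each of these pairs had a lower r over the 4771 sorted basal cells. For the nearest genes it was 0.11 (*Igfbp2*), 0.02 (*Igfbp7*), 0.07 (*Igfbp3*), 0.10 (*Igfbp5*), 0.25 (*Igfbp6*) and 0.06 (*Igfbp4*). The sorted library was shallower and from 1 sort gate, and the part of either was not tested.

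Within the class where a gene was highest, the neighbours changed in part. For *Igfbp2* among 1306 basal cells they were *Acta2* (r = 0.33), *1600014C10Rik* (0.29), *Cnn1* (0.26), *Tagln* (0.24) and *Myl9* (0.21), again mainly contractile genes. *Igfbp3* in the same cells had *Fst* (0.23), which encodes the activin antagonist follistatin, *Apoe*, *Fth1*, *Chil1* and *Col9a1*, all at 0.23 or below. For *Igfbp5* among 766 LP cells they were *Trf* (0.56), *Lcn2* (0.49), *Cd81*, *Itm2b* and *Mfge8*. Partners needed counts in at least 50 cells. In the 97 stromal cells this left 153 genes for *Igfbp6* and *Igfbp4* and 152 for *Igfbp7*, against 8783 over all cells. Among the genes left, *Igfbp6* was nearest to *Gsn* (0.56), *Anxa1*, *Ftl1*, *Gm8730* and *Serpinh1*. *Igfbp7* was nearest to *Sparc* (0.52), *Cd81*, *Tmsb4x*, *Id3* and *Fosb*, and *Igfbp4* to *Anxa1* (0.39), *Gsn*, *Tmsb4x*, *Nfkbia* and *Rpl8*. Genes in fewer stromal cells could not be listed, so a change of neighbours in this class cannot be told from this limit.

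The joint detection of the basal binding proteins was then counted, where a count of 0 at this depth does not show that a cell lacks the mRNA. Thinned to 800 counts, 22.3% of basal cells had none of *Igfbp2*, *Igfbp3*, *Igfbp5* and *Igfbp7*, 40.0% had a count of 1 of them, 28.8% of 2, 8.19% of 3 and 0.689% of all 4. In LP cells 47.5% had none and 49.1% had 1. Pairwise r among the 6 binding proteins in basal cells was at most 0.16, for *Igfbp3* and *Igfbp5*, and r was -0.01 for *Igfbp2* and *Igfbp3*, but sparse counts also lower r, so no independence is read from these values.

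*Igfbp2*, *Igfbp3*, *Igfbp5* and *Igfbp7* were also set against the contractile genes *Cnn1*, *Tagln*, *Myl9*, *Tpm2* and *Mylk*. For this, the basal class was divided into 4 equal groups of cells by contractile share (quartile 1 lowest, quartile 4 highest). For *Igfbp2* this restates in levels the correlation given above, since *Cnn1*, *Tagln*, *Myl9* and *Tpm2* were found as its nearest genes in the same cells. *Igfbp2* was at 196 CPM (165 to 230.3) in quartile 1, 473 and 502 CPM in quartiles 2 and 3 and 861 CPM (794 to 932) in quartile 4. *Igfbp3* and *Igfbp5* went the other way, *Igfbp3* from 418 CPM (373 to 468) to 243 CPM (209 to 283) and *Igfbp5* from 1205 CPM (1126 to 1287) to 687 CPM (627 to 750.4). *Igfbp7* was at 583 CPM (529 to 641) in quartile 1 and 985 CPM (913 to 1061) in quartile 4. Median depth in these quartiles went from 1668 to 2015 counts per cell.

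The same quartiles were made in the 4771 sorted basal cells. *Igfbp2* was again lowest in quartile 1, at 106 CPM (79.8 to 137), and highest in quartile 4, at 380 CPM (333 to 431). *Igfbp3* was at 721, 732 and 716 CPM in quartiles 1 to 3 and at 420.3 CPM (372 to 474) in quartile 4, and *Igfbp5* went from 1904 CPM to 1601 CPM. *Igfbp7* had the opposite order to that in total epithelium, with 542 CPM (481 to 608) in quartile 1 and 316 CPM (274 to 362) in quartile 4. In this library quartile 1 also held 23 of the 35 *Igfbp6* counts, a gene found mostly in collagen cells, and its cells were shallower, at a median of 389 counts against 496 to 543 in the others. The part of either, or of the unlike contractile levels, in the *Igfbp7* order was not tested.

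**Figure D4:**
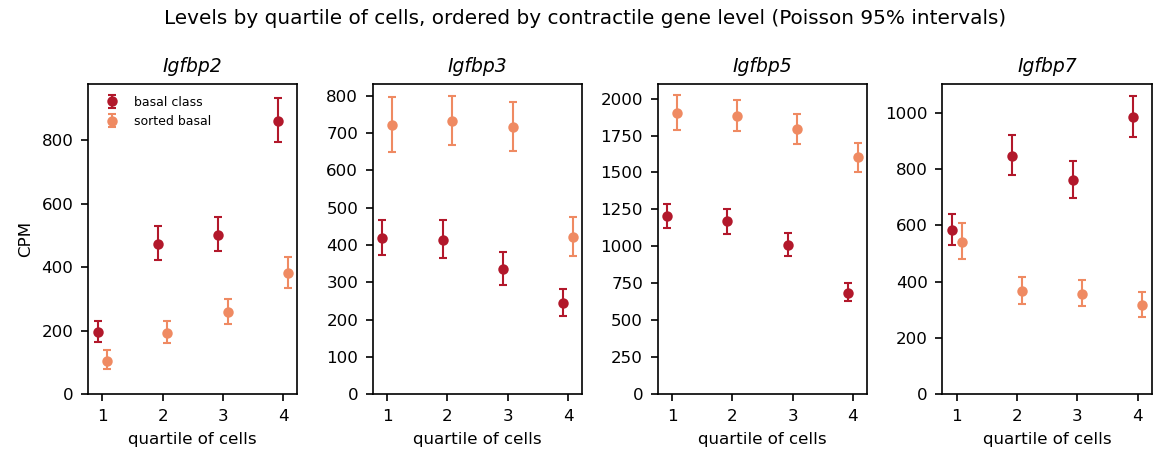
Levels (CPM) of *Igfbp2*, *Igfbp3*, *Igfbp5* and *Igfbp7* in quartiles of the basal class of total epithelium and of the sorted basal library, ordered from low to high share of 5 contractile genes; points are sums over a quartile and bars are Poisson 95% intervals. *Igfbp2* goes from 196 to 861 CPM in the basal class and from 106 to 380 CPM in the sorted library, whereas *Igfbp7* differs in direction between the libraries. Quartiles of the same number differ in contractile level between the libraries.

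The last comparison set all sorted basal cells against the basal class. Of the 8 members with at least 30 counts over both, 0 were 2-fold or more higher in the sorted library, against 28.5% of 9357 genes, and *Igfbp2* and *Igfbp7* were 2-fold or more lower, against 16.1%. The median gene was 0.45 higher on the log2 scale in the sorted library. Scaling by median-of-ratios moved the ratios by -0.43, and with it the share of all called genes that were higher went from 64.0% to 35.2%, so each ratio below is to be read against that median.

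*Igfbp2* was at 240 CPM in the sorted library (221 to 260) and 506 CPM in the basal class, a ratio of 0.474 (0.430 to 0.522). *Igfbp7* was at 388 CPM (364 to 413) against 791 CPM, a ratio of 0.490 (0.454 to 0.529). Both stood further from the median gene than from equality. In the 1758 sorted cells with 10 or more basal class counts, *Igfbp7* was at 306 CPM (ratio 0.387). *Igfbp2* was at 319 CPM in them, with a ratio of 0.631 that no longer reached 2-fold. Their median was 647 counts against 1838.5 in the basal class, so the same threshold asked for a larger share of the class genes. In basal cells *Acta2*, a class gene, was nearest to *Igfbp2* (r = 0.33), and the effect of this selection was not tested.

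*Igfbp3* was at 645 CPM (614 to 678), 1.83 times the basal class (1.69 to 1.99), and *Igfbp5* at 1791 CPM (1739 to 1844), 1.76 times (1.68 to 1.85). *Igfbp4* (106 CPM, ratio 1.37, 1.14 to 1.65) and *Igf1r* (53.0 CPM, ratio 1.40, 1.08 to 1.83) had log2 ratios of 0.46 and 0.49, close to the median gene. *Igf2r*, with 16 counts, had a ratio of 1.27 (0.583 to 2.82), whose log2 value of 0.35 became -0.08 under median-of-ratios scaling. *Igfbp6* was at 14.1 CPM on 35 counts, of which 62 collagen cells held 23, with a ratio of 0.766 (0.483 to 1.2). Among sorted cells with 10 or more basal class counts it had 3 counts, a ratio of 0.136 (0.0272 to 0.421). *Igf1* had 7 counts, 4 of them in collagen cells.

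**Figure D5:**
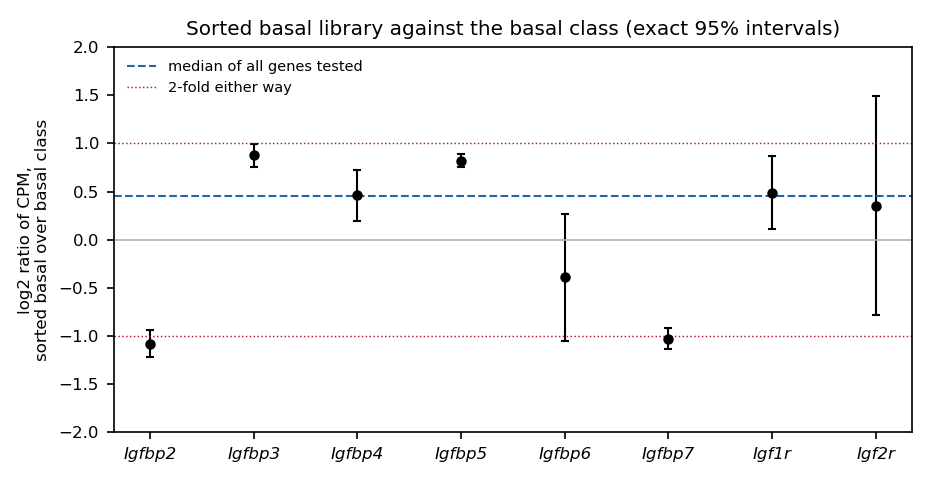
Log2 ratio of CPM in the sorted basal library over the basal class of total epithelium for the 8 members with enough counts; points are ratios of sums with exact 95% intervals, the dashed line is the median of 9357 genes at 0.45 and dotted lines mark 2-fold. *Igfbp2* and *Igfbp7* lie past the lower line, and *Igfbp3* and *Igfbp5* lie above the median line.

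With both libraries thinned to 300 counts, an *Igfbp5* count was found in 32.7% of 3889 sorted basal cells (31.2 to 34.2%) and in 21.2% of basal class cells (19.0 to 23.5%), and 882 shallower sorted cells were left out. *Igfbp3* was found in 12.7% and 9.11% of these cells, *Igfbp2* in 5.37% and 11.2%, and *Igfbp7* in 7.77% and 17.4%. The shares had the same order as the levels in each case.

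The rest of the pathway was followed through a list of 47 genes, of which 32 had at least 30 counts in the epithelial classes. Of these, 11 (34.4%) differed 4-fold or more, against 24.1% of all genes. Basal was highest in 6 of the 11, and 11.4% of all genes were called with basal highest. LP was highest in the other 5, but the share of all genes called with LP highest was not counted, so nothing is read from this number. The median fold of the 32 was 3.2 against 2.09 over all 10096 genes and 16.3 for the 8 members. The other ligand genes were nearly absent, with *Ins1*, *Ins2* and the family members *Igfbp1* and *Igfbpl1* at 0 counts in both libraries. *Igf2* had 1 count in total epithelium, in a stromal cell, and the insulin-related receptor *Insrr* had 0. The insulin receptor *Insr* was at 6.12 CPM in the basal class (17 counts), 3.87 in ML (16 counts) and 2.78 in LP (6 counts).

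*Igfals*, which encodes the subunit that joins IGFBP3 and the ligand in serum, was luminal. It had 6 counts in basal (2.16 CPM), 121 in LP (56.1 CPM) and 130 in ML cells (31.5 CPM), and LP was 25.9 times basal (11.6 to 72.1). Of 5 listed proteases, *Pappa* and *Htra1* had enough counts, and within the epithelium both were highest in the basal class, whereas *Pappa2*, *Adam12* and *Adam28* had at most 4 epithelial counts each. *Pappa*, the protease of IGFBP4, had 52 counts in the basal class against 2 in ML and 1 in LP, a basal to LP ratio of 40.4 (6.94 to 1627). *Htra1*, a secreted protease, had 275 counts in basal (99.1 CPM) and 2 in LP, and it was at 400.1 CPM in stromal cells, 4.04 times basal (3.03 to 5.32). *Stc1*, an inhibitor of PAPP-A, was higher in LP (14.4 CPM) than in basal cells (1.44 CPM; ratio 9.97, 3.52 to 38.9).

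Among signalling genes, the adaptor *Irs2* had the order of *Igf1r*, at 33.5 CPM in the basal class, 25.9 in LP and 5.08 in ML (basal over ML 6.59, 4.07 to 11.1). The growth-restraining transcription factor *Foxo4* was at 12.6 CPM in basal, 2.90 in ML and 1.85 in LP cells. *Stat5b* of the growth hormone arm was at 21.3 CPM in LP, a similar 19.8 in ML and 5.04 in basal cells. *Grb10*, an adaptor that dampens the receptor, was at 7.41 CPM in LP, 4.60 in ML and 1.80 in basal cells (LP over basal 4.12, 1.44 to 14.4). In stromal cells it was at 43.8 CPM, on 7 counts. Of the CCN proteins, which share a domain with the binding proteins, *Ctgf* was at 520 CPM in the basal class against 7.41 in LP and 2.18 in ML. *Wisp1* had 35 counts in the basal class and 0 in the others (17.4 times the level that 3 counts in the ML class would give). *Wisp2* was at 281 CPM in LP against 25.2 in basal cells. In the sorted basal library *Pappa* was at 26.9, *Htra1* at 129, *Ctgf* at 934 and *Igfals* at 0.402 CPM.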

How the data were processed

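Single-cell 3′ libraries were made on the 10X Chromium platform, and the authors deposited whole-number counts of unique molecules for each gene and cell, without normalization. The processing notes name Cell Ranger 1.2.1 and mm10, and the study's methods name version 2.0; the threshold of the cell filter is not given in the sources used here. The sorted basal library summed to 2488704 counts (137 to 1946 per cell) and total epithelium to 9227651 (802 to 12967 per cell). The members, class rule and gene lists were chosen with earlier results of these data known. Counts were summed per class in Python 3.11.15 with scipy 1.17.1, with exact Poisson intervals for levels and exact Clopper-Pearson intervals for shares and ratios. Genes needed 30 counts, and a count of 0 was set to 3 counts for folds. Calls were by size of fold, 4 between classes and 2 between libraries. Named genes were the members, up to 14 pathway genes of 4-fold or more, every listed ligand, receptor and family member, and the 5 genes of highest r to each of the 6 members with 200 or more counts, over all cells and over the class where the member was highest (partners with counts in at least 50 cells). Contractile quartiles, collagen cells and basal-gene ratios were added after the data were seen. Doublets were kept, and Scrublet in scanpy 1.11.5 called 41 of 3302 cells (1.24%), 39 of them basal. Gene positions came from GENCODE M21. Alternatives covered the class rule, scaling, filters, folds and left-out cells.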

Additional observations from a re-analysis of the deposited data

How the results depend on the processing

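The count of members that differed 4-fold among epithelial classes was 7 or 8 under each of the 16 alternatives run. Those that changed only the choice of stromal cells could not alter this count. Larger shifts came in the pathway list, which went from 11 to 6 genes with a minimum of 100 counts and to 25 with a fold of 2, the stromal class, which went from 2 members to 1 (*Igfbp7*) with collagen-marked stromal cells left out, and to 3 (*Igfbp4* added) with those cells alone, with the deepest 5% of cells left out and at a fold of 2, and the sorted basal library, which went from 2 to 0 with a fold of 4. These follow from the stricter or looser limits and the smaller set of cells. *Igfbp5* was highest in basal rather than LP cells with doubled thresholds and with classes from thinned counts. Among single-gene log2 ratios, 530 stayed within their counting error and 82 moved by more. The 530 include settings that cannot change a ratio, namely the gene filters, the folds and, for epithelial ratios, the choice of stromal cells. They are thus no measure of stability. *Igfbp6* basal over ML went from -1.53 to 5.23 without collagen cells, a setting chosen after seeing the data, as was LP limited to marked cells. Members called numbered 8, with *Igf2r* added, under mean CPM over cells, with the deepest 5% of cells left out, and at a fold of 2. Low counts limit *Igf1*, *Igf2r* and luminal *Igfbp2* most. With 1 library per group no replicate could be left out.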
